A study of Mus musculus with 8 samples.

Results

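Apart from Srm, the 38 genes described here encode proteins that make and assemble ribosomes, mainly in the nucleolus. All 38 were taken by name from the 19669 genes of a single-cell RNA count table. They comprise 2 subunits of RNA polymerase I, 4 genes of box C/D small nucleolar particles, 5 of box H/ACA particles, 10 of small subunit assembly, 11 of large subunit assembly, 5 abundant nucleolar proteins and regulators, and Srm, which makes spermidine. The cells came from erythroblastic islands, the clusters of a macrophage and maturing red cells, of male Sle1.Yaa lupus-prone mice, in 10x Genomics v3.1 libraries. The labels list 2 bone marrow and 2 spleen libraries from mice with a human TLR8 transgene (huTLR8tg, called Anemic), and 3 bone marrow libraries and 1 spleen library from Sle1.Yaa controls without it (called Non-Anemic). All groups carry Sle1.Yaa. The labels do not state the mice's ages, the transgene's promoter or whether a library pooled mice.

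The table held 24942 cells and 248384567 unique molecular identifiers (UMIs, each standing for 1 captured RNA molecule), with a median of 7554 UMIs per cell. Nothing in it ties a cell to a library, so the cells were treated as 1 pooled sample, no group was compared with another, and no p-value is given. Barcodes lay in 8 alphabetically sorted runs of 447 to 6787 cells and 6195876 to 48442321 UMIs. These runs were used as unnamed libraries to show how far a value varied. A total of 287 barcodes, in 1031 cells, occurred in more than 1 run, and 12 of them occurred in all 8.

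In the nucleolus RNA polymerase I copies the ribosomal DNA into a long precursor, small nucleolar particles guide methylation (box C/D) and pseudouridylation (box H/ACA) of that RNA, and assembly factors cleave it and load ribosomal proteins onto it. Red cell precursors depend on ribosomes to make globin, and inherited defects of ribosome production are known for causing anemia. Both red cell and neutrophil precursors lose their nucleoli as they mature.

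Cells were clustered without the 38 genes, other ribosome assembly genes, ribosomal proteins or globins, and clusters were named from marker genes. Erythroid-like cells were split by the share of globin in their UMIs, which rises as red cells mature, at 2, 20, 60 and 80%. The 5 ranges held 1129, 1751, 3172, 2117 and 1894 cells in order of globin share. They are ranges and not cell types, and of 10063 erythroid-like cells 210 lay within 0.5 percentage points of the bound at 2%, and 680, 1054 and 837 lay within 5 points of the bounds at 20, 60 and 80%. Summed over 24 erythroid markers, their levels were 8714, 20530, 42570, 67080 and 77240 CPM, against 830.2 CPM in stem and multipotent progenitor-like cells. CPM here means UMIs per 1000000 UMIs of the class, globins left out. The other stages were the stem and multipotent progenitor-like class (573 cells), the granulocyte-monocyte progenitor-like class (875), a cluster led by Fcnb, Elane and Serpinb1a that could not be named from its markers and is called the Fcnb-high cluster (531), and immature (1990) and mature (1735) neutrophil-like cells.

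The 38 genes together were highest in erythroid-like cells with under 2% globin, at 11940 CPM, and lowest in mature neutrophil-like cells, at 254.4 CPM. Stem and multipotent progenitor-like cells stood at 7000 CPM, with 5903 to 7221 over 5 runs, and the youngest erythroid-like cells at 8704 to 15640 over 8 runs, so these 2 classes did not overlap. The sum then went to 3267 CPM at 2 to 20% globin (2463 to 4050 over 7 runs), 1093 at 20 to 60% (926.1 to 1513 over 8 runs), 628.2 at 60 to 80% (366.3 to 1428 over 7 runs) and 1088 at 80% or more (301.2 to 2584 over 7 runs). The first 3 erythroid ranges did not overlap between runs, whereas 60 to 80% overlapped 20 to 60%, and 80% or more overlapped each range from 2 to 20% on. From under 2% to 60 to 80% globin the sum was 19.01-fold lower, and without Npm1 and Ncl it was 16.85-fold lower.

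In the neutrophil line the summed level was 4313 CPM in granulocyte-monocyte progenitor-like cells (3972 to 6025 over 5 runs), 1301 in the Fcnb-high cluster (1200 to 1354 over 4 runs), 493.1 in immature neutrophil-like cells (440.1 to 805.1 over 6 runs) and 254.4 in mature ones (193.4 to 666.2 over 7 runs). The first 3 of these stages did not overlap, and the last 2 did. In every run that held both classes of a pair, each neutrophil stage lay below the one before it. The remaining named classes lay between 1011 CPM in plasma cell-like and 5035 CPM in megakaryocyte-like cells. In UMIs per cell, without any scaling, the 38 genes together gave a mean of 93.03 in stem and multipotent progenitor-like cells, 101.4, 37.17, 7.026, 1.755 and 1.068 along the 5 erythroid ranges, and 91.36, 35.36, 7.743 and 1.806 along the neutrophil stages. The median cell gave another order for the first 2 classes, with 79 UMIs (quartiles 38 and 133) in stem and multipotent progenitor-like cells and 44 UMIs (17 and 154) in erythroid-like cells under 2% globin, whose median depth was 3376 UMIs against 12427.

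**Figure D1:**
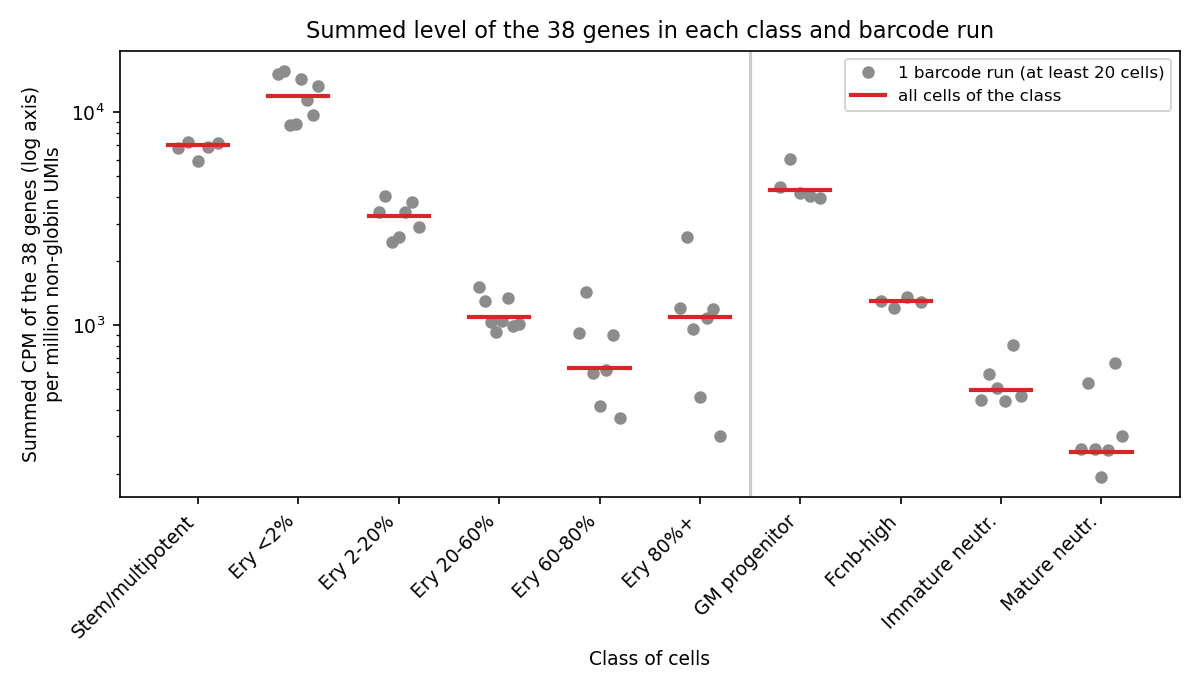
Summed level of the 38 genes (CPM, log axis) in each class of cells. Grey points are barcode runs with at least 20 cells of the class and red lines are all cells of the class; Ery marks erythroid-like cells by globin share. The youngest erythroid-like cells (11940 CPM) lie above all other stages, and mature neutrophil-like cells (254.4 CPM) lie lowest.

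Of the 38 genes, 37 were highest of the 10 stages in erythroid-like cells under 2% globin. The exception was Nob1, the endonuclease that makes the last cut of small subunit RNA, at 45.9 CPM there and 51.61 CPM in stem and multipotent progenitor-like cells. With all named classes considered, 36 of 38 were highest in the youngest erythroid-like cells, Utp15 being highest in pro-B and pre-B-like cells (32.22 CPM). Mature neutrophil-like cells held the lowest of the 10 levels for 32 genes. How many of all genes were highest or lowest in these classes was not counted, so these counts have no background. The youngest erythroid-like cells were themselves a mixture: 721 cells of a shallow cluster (median 1676 UMIs) stood at 15270 CPM for the sum of the 38 genes, 351 cells of a deep cluster (median 21428 UMIs) at 11160 CPM, and 36 cells of another at 5895 CPM. In all 8 clusters held cells of this class, and only those with 20 or more such cells are listed. In the shallow and in the deep cluster Car1 was the only erythroid marker among the 50 leading genes, so their naming rests on few markers.

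**Figure D2:**
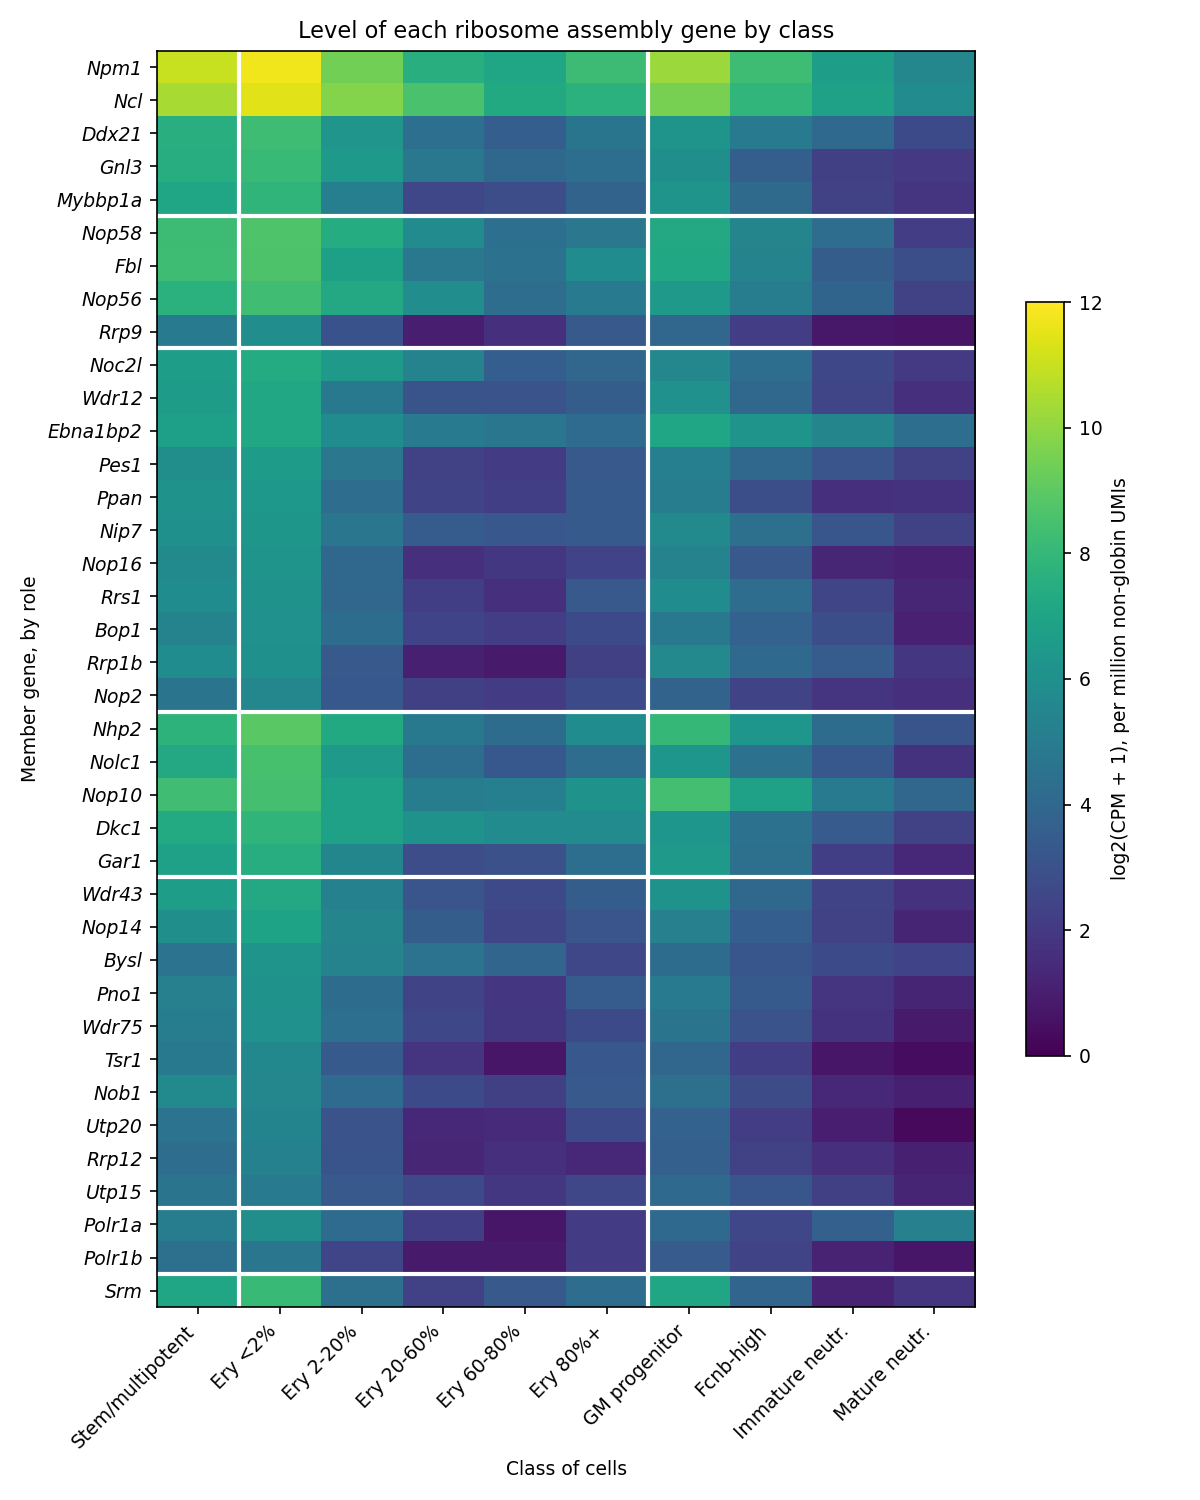
Level of each of the 38 genes (rows, grouped by role) in each of 10 classes (columns), as log2(CPM + 1). Nearly every row is brightest in the second column, erythroid-like cells under 2% globin, and the neutrophil columns darken to the right; the erythroid columns darken up to 60 to 80% globin (median gene 5.747 CPM) and are brighter again at 80% or more (9.952 CPM), and Polr1a brightens again in mature neutrophil-like cells.

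Differences between classes were taken as log2 ratios of CPM + 10, relative to the median gene, for genes with at least 20 CPM in either class. A gene counts as higher or lower where the pooled cells differ 2-fold or more and every run holding 20 or more cells in each class goes the same way. Shares of all genes were taken at the minimum of 20 CPM only, so counts without that minimum have no matching share. Against stem and multipotent progenitor-like cells, the youngest erythroid-like cells were higher for 3 of 38 genes and lower for 0, while 8.42% of all genes compared were higher and 16.9% lower by the same rule. The 3 were Bysl, a small subunit factor (72.19 against 22.46 CPM, log2 difference 1.27), Nolc1, a chaperone of small nucleolar particles (360.7 against 149.2 CPM, 1.15), and Nhp2, a box H/ACA core protein (486.9 against 218.9 CPM, 1.05). The median over the 38 genes was 0.57, with 0.14 to 1.02 over 5 runs. Beside it, 17 of 20 proliferation genes were higher (median 1.40), 6 of 93 other ribosome assembly genes were higher and 1 was lower, and of 83 ribosomal protein genes 0 were higher and 1 was lower.

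All 38 genes could be compared between cells with under 2% and with 2 to 20% globin, the first erythroid step. Of these 32 fell and 0 rose, against 6.34% of all genes lower and 7.28% higher. All 38 passed the minimum level through the earlier class, and 22 of them also had 20 CPM in the later class. Without that minimum 34 of 38 fell. The median log2 difference of the 38 was -1.47, with -1.78 to -1.29 over 7 runs. At the same step 40 of 94 other ribosome assembly genes fell (median -0.95), 0 of 83 cytosolic ribosomal protein genes changed (median 0.01), and 8 of 20 proliferation genes rose (median 0.87). The 2 ranges drew on different clusters, 8 under 2% globin and 11 at 2 to 20%. Within the 3 clusters that held 20 or more cells of each range the sum of the 38 genes went from 15270 to 7452, from 11160 to 5280 and from 5895 to 3508 CPM. This was a smaller drop than the 11940 to 3267 CPM of the pooled cells. Fewer cells making these transcripts and fewer transcripts per cell cannot be told apart in a class sum. Per cell, the 38 genes gave a median of 44 UMIs (quartiles 17 and 154) under 2% globin. At 2 to 20% the median was 22 UMIs (6 and 52). Median depth was 3376 and 9596 UMIs, and which of these changes made the drop was not tested.

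By role, all 5 of the abundant nucleolar proteins and regulators fell at this step. Npm1, the histone-binding chaperone nucleophosmin, ranged from 1729 to 4968 CPM (median 3612) over 8 runs under 2% globin, and from 503.7 to 906.8 CPM (median 725.5) over 7 runs at 2 to 20%. The 2 ranges did not overlap, and the log2 difference was -2.20. Ncl, nucleolin, which binds the nascent precursor, ranged from 1831 to 3319 CPM (median 2843) and then from 644.4 to 1093 CPM (median 821), again without overlap, a log2 difference of -1.59. Mybbp1a, a nucleolar partner of transcription factors, stood at 229.3 and then 34.93 CPM, Ddx21, an RNA helicase, at 305 and 75.04 CPM, and Gnl3, nucleostemin, at 282.8 and 85.58 CPM.

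Of the box C/D genes 3 of 4 fell. Fbl, fibrillarin, the methyltransferase of these particles, ranged from 228.7 to 674.6 CPM (median 406.7) under 2% globin and from 77.56 to 157.6 CPM (median 122.2) at 2 to 20%, without overlap. Nop58 stood at 416.1 and then 169 CPM and Rrp9, which binds the U3 particle, at 57.59 and 7.077 CPM. Nop56, the scaffold partner of Nop58, stood at 321 and 151.6 CPM and did not reach the bound. Of the box H/ACA genes 4 of 5 fell, namely Nhp2 (486.9 to 155.4 CPM), Nop10 (345.9 to 115.2), Gar1 (179.7 to 44.07) and Nolc1 (360.7 to 89.7). Dkc1, dyskerin, the pseudouridine synthase of the same particle, was the fifth, at 231.4 and 116.9 CPM.

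Both subunits of RNA polymerase I fell at the same step. Polr1a, the largest subunit, went from 60.82 to 17.52 CPM and Polr1b, the second largest, from 24.93 to 4.718 CPM. Over runs, Polr1a ranged from 11.38 to 103.8 CPM and then from 10.32 to 23.36 CPM, so its ranges overlapped although each run on its own was lower. Among small subunit factors 7 of 10 fell, and Bysl (72.19 and 40.41 CPM), Nob1 and Utp15 did not. Among large subunit factors 10 of 11 fell, including the 3 partners of the PeBoW complex, Pes1 (97.65 to 25.8 CPM), Bop1 (65.93 to 17.72) and Wdr12 (145.1 to 27.56), and Noc2l (168.3 and 87.64 CPM) did not.

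Srm, spermidine synthase, had the largest difference of the 38. Over 8 runs it lay between 158 and 434.3 CPM (median 266.1) under 2% globin, and over 7 runs between 8.455 and 32.84 CPM (median 25.99) at 2 to 20%. These ranges did not overlap, and the log2 difference was -3.17. Of 6 polyamine genes compared at this step, Srm included, 2 fell and 1 rose. The other that fell was Sms, spermine synthase (87.53 to 24.49 CPM), and the one that rose was Azin1, the antizyme inhibitor (78.45 to 181.4 CPM). From 2 to 20% to 60 to 80% globin, where Srm had a difference of -0.08, 3 of 6 rose, namely Azin1 (181.4 to 836.8 CPM), the antizyme Oaz1 (2078 to 4733) and ornithine decarboxylase Odc1 (644.5 to 1273).

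**Figure D3:**
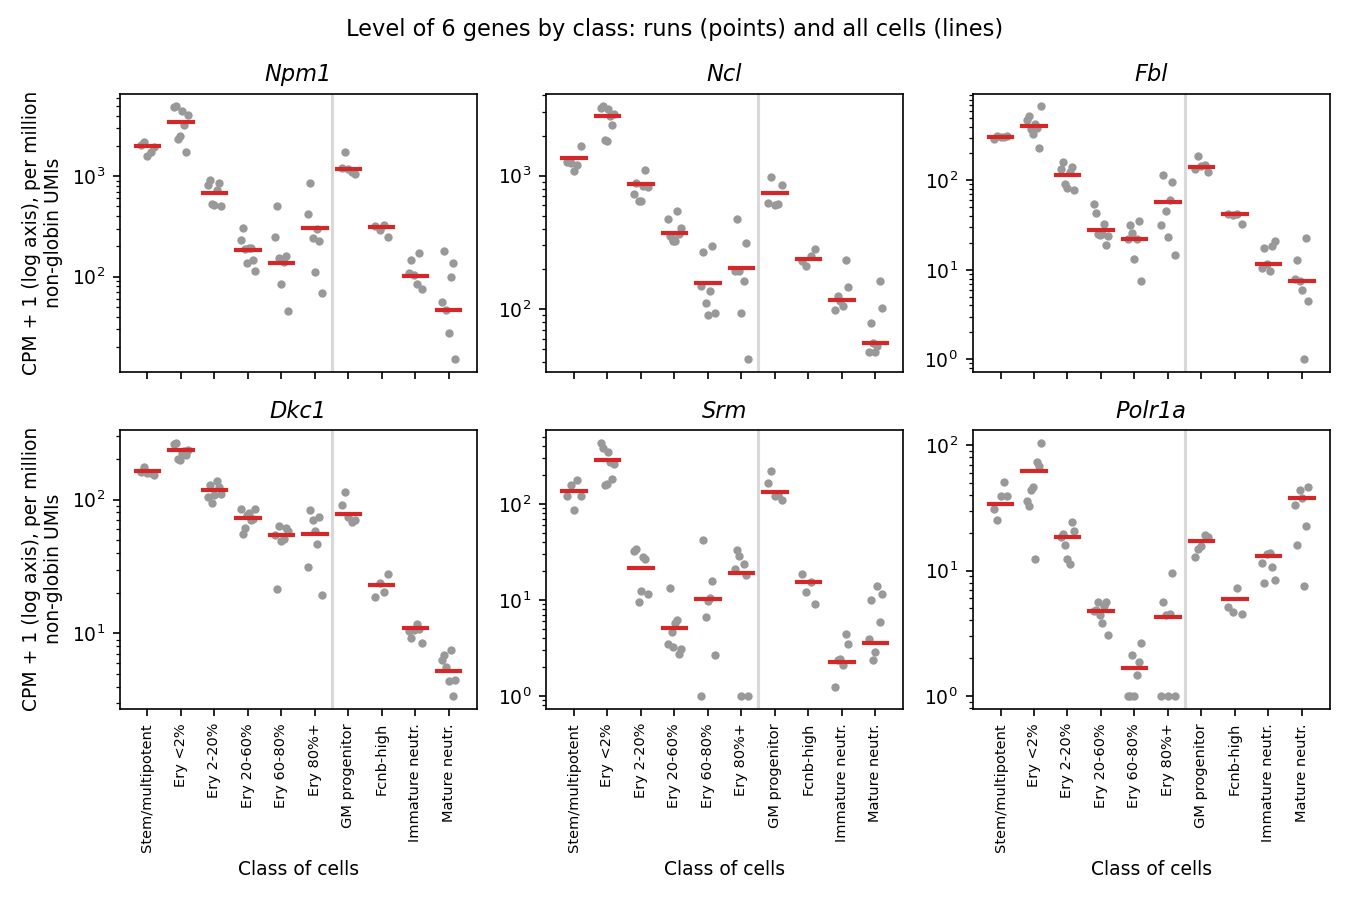
Levels (CPM + 1, log axis) of 6 of the genes in 10 classes; grey points are barcode runs and red lines all cells of a class. Srm drops most between the first 2 erythroid ranges (283.2 to 20.33 CPM), Dkc1 declines least along the erythroid ranges (231.4 to 53.42 CPM at 60 to 80% globin), and Polr1a is higher in mature (36.62 CPM) than in immature (11.97 CPM) neutrophil-like cells.

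The genes that did not reach the bound at this step were Bysl, Dkc1, Nob1, Noc2l, Nop56 and Utp15. In the annotation 17 of the 38 genes overlap another gene on the opposite strand and 0 on the same strand, and Bysl, Dkc1, Noc2l and Nop56 are among the 17. The rest of the 17 fell at this step, and levels of their partners are not listed here. The opposite-strand partners of Bysl, Dkc1, Noc2l and Nop56 had levels of their own in these cells. Mpp1, a membrane protein of red cells that overlaps Dkc1, stood at 91.49, 195.9, 343.7, 970.3 and 2332 CPM along the 5 erythroid ranges. Samd11, which overlaps Noc2l, stood at 5.216, 42.46, 191.7, 256.1 and 43.57 CPM, Ccnd3, cyclin D3, which overlaps Bysl, at 293.5, 924.5, 611.3, 103.8 and 70.47 CPM, and Idh3b, which overlaps Nop56, at 102, 71.83, 48.13, 15.55 and 10.76 CPM. The strand setting of the counting is not given in the sources used here, and the part of these neighbours in the counts was not tested. Npm1 has near-identical processed copies in the genome, and how reads shared with them were counted is not given either.

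From 2 to 20% to 20 to 60% globin, 22 of the 38 genes had 20 CPM in either class, and 17 of these fell and 0 rose, against 5.55% of all genes lower and 7.1% higher. All 22 passed the minimum level through the earlier class, and without that minimum 18 of 38 fell. In all, 16 of the 22 genes fell at both steps, and the share of all genes that did so was not counted. Npm1 went from 686.2 to 183 CPM, Nhp2 from 155.4 to 27.97, Fbl from 113.8 to 26.54, Gar1 from 44.07 to 6.084 and Mybbp1a from 34.93 to 4.857. Nop56 fell only now, from 151.6 to 57.55 CPM. At this step 15 of 83 ribosomal protein genes also fell (median -0.77).

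From 20 to 60% to 60 to 80% globin, 0 of the 12 genes that could be compared rose or fell (median -0.01, run range -0.55 to 0.41), against 5.79% of all genes lower and 12.7% higher. The median gene shifted by -0.435, and without centring on it 3 of the 12 were lower (median -0.44). Without the minimum level 3 of 38 were lower. Ncl stood at 374.1 and 154.7 CPM and Npm1 at 183 and 134.6 CPM. By contrast 51 of 83 ribosomal protein genes fell here (median -1.08), as did 10 of 20 proliferation genes (median -0.89). The summed ribosomal protein level along the 5 erythroid ranges was 303800, 285800, 168400, 60040 and 101600 CPM, and that of the proliferation genes 6114, 11710, 15200, 9021 and 1413 CPM.

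Finer ranges of globin showed the order in more detail. The 38 genes stood at 14420 CPM in 572 cells with under 0.5% globin, 10790 in 259 cells at 0.5 to 1% and 7743 in 298 cells at 1 to 2%, with ribosomal proteins at 301600, 304000 and 308400 CPM in the same cells. At 10 to 20% globin the 38 genes were at 2367 CPM and ribosomal proteins at 274000, and at 50 to 60% at 751.8 and 83070 CPM. Srm went from 379.6 CPM under 0.5% globin to 7.654 CPM at 10 to 20%. The proliferation genes were highest at 40 to 50% globin, at 16260 CPM, where the 38 genes stood at 854.8 CPM. Median UMIs per cell were 3876.5 under 0.5%, 2679 at 0.5 to 1%, 13007 at 10 to 20% and 9162 at 40 to 50%, and the part of depth was not tested.

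**Figure D4:**
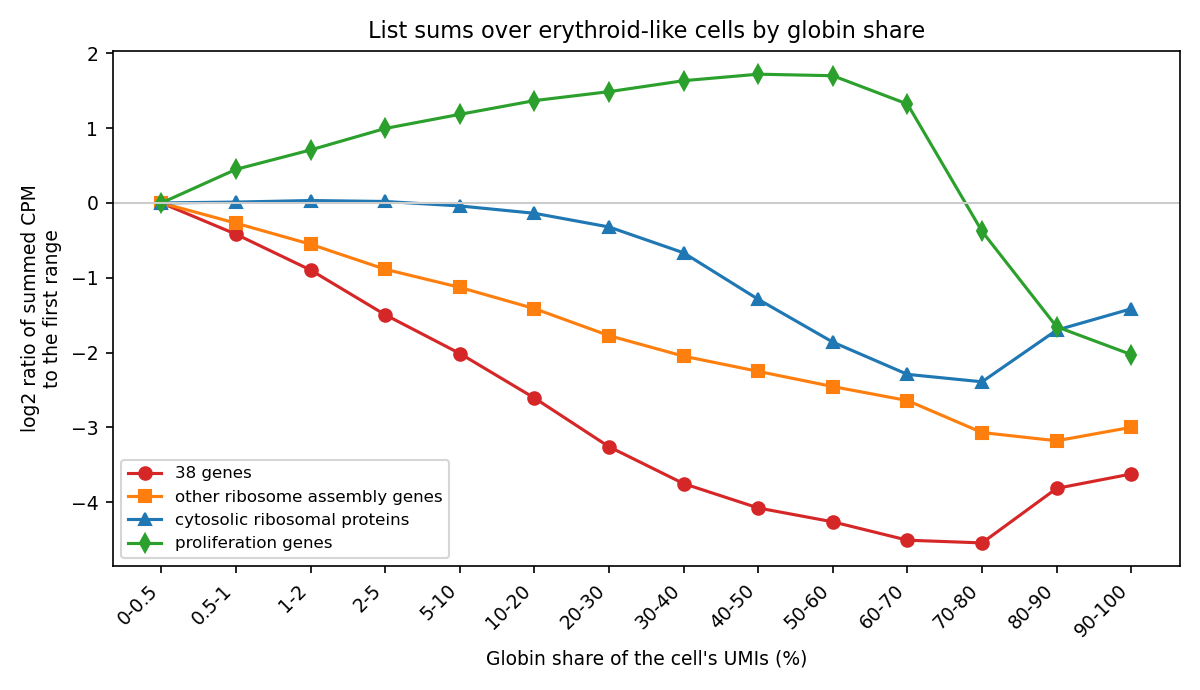
Summed level of each gene list in erythroid-like cells, as the log2 ratio to cells with under 0.5% globin (vertical axis), by globin share of the cell in percent (horizontal axis). The line of the 38 genes goes down from the first range on (14420 to 618.5 CPM at 70 to 80%), ribosomal proteins stay level to 5 to 10% globin (293300 CPM) before going down, and proliferation genes go up to 40 to 50% globin.

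Over the whole span from 2 to 20% to 60 to 80% globin, 13 of the 22 genes compared fell and 0 rose (median -1.20, run range -1.40 to -0.71), against 14% of all genes lower and 22.5% higher, and without the minimum level 21 of 38 fell. All 22 passed that level through the earlier class, and 6 of them also had 20 CPM in the later class. The median gene itself shifted by -0.57 on the log2 scale here, and differences are relative to it. In the same comparison 18 of 64 other ribosome assembly genes fell, with the largest differences in Rrp1 (166.6 to 21.81 CPM), Snu13 (238 to 41.75), Ddx27 (132.6 to 21.64) and Rsl1d1 (100.2 to 14.88). Ribosomal protein genes fell in 74 of 83, led by Rps18 (4971 to 365.8 CPM), Rpl12 (3616 to 353.1), Rps2 (7803 to 773.9) and Rpsa (7151 to 833.9). Of 20 proliferation genes 9 fell, led by the replicative helicase subunits Mcm3 (530.3 to 24.85 CPM), Mcm4 (291.9 to 14.2), Mcm6 (447.1 to 27.89) and Mcm5 (401.6 to 24.68), and 3 rose.

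In cells with 80% or more globin, 6 of the 10 genes compared were higher than at 60 to 80%, and 0 were lower, against 17.5% and 8.32% of all genes. They were Npm1 (134.6 to 300.7 CPM), Ncl (154.7 to 200.7), Fbl (21.3 to 56.48), Nhp2 (17.92 to 55.95), Nop10 (34.82 to 68.86) and Nop56 (18.76 to 28.51). Nhp2 and Nop56 passed the minimum level only through the later class, where they are high. Without the minimum level 2 of 38 were higher (median 0.40). The median gene shifted by -0.83, and without centring on it 2 of the 10 were higher. With 500 genes and 10% mitochondrial UMIs required 1 of 8 was higher, and with all UMIs as the total 1 of 2. Ribosomal protein genes were higher in 75 of 83. Markers of another cell type moved with this step: the 10 immature neutrophil markers summed to 855.9 CPM (75.57 to 2413 over runs) and then 1899 CPM (155.2 to 4994), and the 8 promyelocyte markers to 264 and 732.1 CPM, with all 10 and all 8 above 0 in both ranges. Per cell, both were lower in the later range: the 38 genes gave 1.755 and then 1.068 UMIs and the immature neutrophil markers 2.392 and 1.864. For each immature neutrophil marker UMI there were 0.734 and then 0.5729 UMIs of the 38 genes. In the neutrophil line the same value was 0.3679 in granulocyte-monocyte progenitor-like cells and 0.01862 in the Fcnb-high cluster. It was 0.003849 in immature and 0.003968 in mature neutrophil-like cells. The part of these markers in the result was not tested.

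The neutrophil line was followed from granulocyte-monocyte progenitor-like cells. Of 37 genes compared between them and stem and multipotent progenitor-like cells, Gnl3 was lower (61.28 against 177.9 CPM) and 0 were higher, against 8.2% of all genes lower and 8.93% higher. This class came from 2 clusters with summed levels of 3525 CPM (446 cells) and 4722 CPM (429 cells). In the first of these 97.98% of cells came from 1 barcode run, and that run held 53.71% of the class. Between this class and the Fcnb-high cluster 3 runs could be compared, which did not include that run, and 29 genes passed the minimum level. Of these, 16 fell and 0 rose, against 2.7% of all genes lower and 2.83% higher, and without the minimum level 21 of 38 fell. All 29 passed that level through the progenitor-like class, and 13 of them also had 20 CPM in the Fcnb-high cluster. The median was -1.15, with -1.17 to -1.02 over runs. With the run that held 53.71% of the progenitor-like class left out, 19 of 29 fell (median -1.24). At cluster resolution 2 the same run held 99.35% of an unnamed cluster of 306 cells led by Fcnb and Orm1. The part of this run in the neutrophil steps was not tested further.

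Srm again had the largest difference, from 133.9 to 14.2 CPM (log2 difference -2.32). Its 5 runs of progenitor-like cells lay between 109.3 and 220.2 CPM and its 4 runs of the Fcnb-high cluster between 8.148 and 17.75 CPM, without overlap. Npm1 went from 1172 to 309.9 CPM, Ncl from 745.4 to 236.6 CPM and Gnl3 from 61.28 to 11.5 CPM. All 5 box H/ACA genes fell, including Dkc1 (76.93 to 21.82 CPM) and Nop10 (344.1 to 117.4 CPM). At this step 7 of 71 other ribosome assembly genes fell (median -0.49), while 0 of 83 ribosomal protein genes (median -0.50) and 0 of 20 proliferation genes (median 0.52) changed by the rule.

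From the Fcnb-high cluster to immature neutrophil-like cells 4 of 13 genes fell and 0 rose, namely Npm1 (309.9 to 100.8 CPM), Fbl (40.87 to 10.56), Nhp2 (78.41 to 18.08) and Nop10 (117.4 to 28.71), against 4.79% of all genes lower and 5.04% higher, and without the minimum level 6 of 38 fell. All 13 passed that level through the Fcnb-high cluster, and 4 of them also had 20 CPM in immature cells. Ribosomal protein genes fell in 76 of 83 here. From immature to mature neutrophil-like cells 0 of 5 genes fell and 1 rose, against 12.3% lower and 13.1% higher. The gene that rose was Polr1a, which passed the minimum level only through mature cells, where it is high. Without the minimum level 1 of 38 was higher (median -0.25), and with a minimum of 50 CPM, or at cluster resolution 0.5, 0 were. Its level was between 6.91 and 12.88 CPM (median 10.17) over 6 runs of immature cells and between 6.498 and 45.59 CPM (median 32.09) over 7 runs of mature cells, so the ranges overlapped, although it was higher in each run that held both. Polr1b, its partner subunit, was at 1.184 and 0.6495 CPM. An antisense transcript overlaps Polr1a in the annotation and is not analysed here. Mature neutrophil-like cells against granulocyte-monocyte progenitor-like cells showed 26 of 30 genes lower and Polr1a higher, against 22.3% and 29.3% of all genes (median -1.74, run range -1.83 to -1.39). Polr1a (16.08 and 36.62 CPM) again entered only through the mature cells, and the other 29 genes passed through the progenitor-like class. Without the minimum level 33 of 38 were lower, and no share of all genes was taken at that setting. In the same comparison 80 of 83 ribosomal protein genes (median -2.63) and 19 of 20 proliferation genes (median -2.03) were lower. Of other ribosome assembly genes 39 of 71 were lower (median -1.08). Of the 32 genes that fell at the first erythroid step, 23 were lower here, where 30 of the 38 could be compared. The share of all genes lower in both comparisons was not counted.

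**Figure D5:**
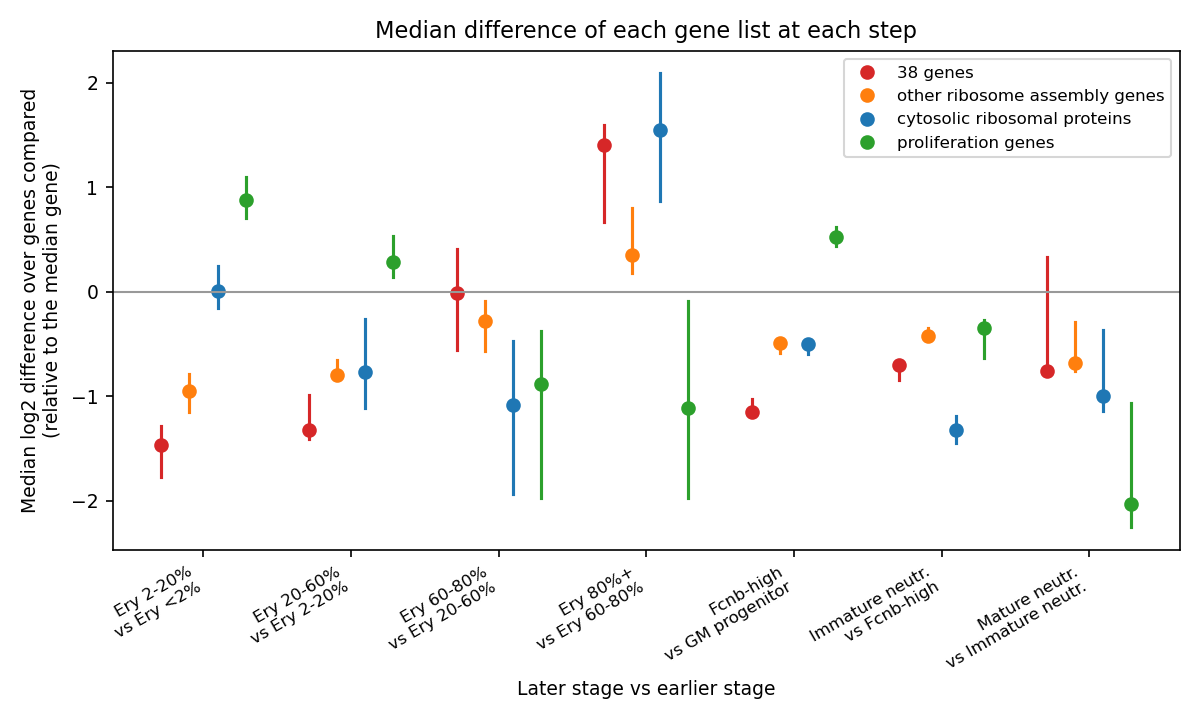
Median log2 difference over the genes compared, relative to the median gene (vertical axis), for 4 gene lists at 7 steps between a later and an earlier stage. Points are pooled cells and bars the lowest and highest barcode run. The 38 genes lie lowest of the 4 lists at the first 2 erythroid steps (-1.47 and -1.33) and at the first neutrophil step (-1.15), and ribosomal proteins lie below them at the third erythroid step and at the last 2 neutrophil steps. Proliferation genes lie below the 38 genes at the third and last erythroid steps and at the last neutrophil step (-2.03). Other ribosome assembly genes lie below the 38 genes at the third and last erythroid steps.

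Myc, a transcription factor known to drive ribosome genes through the letters CACGTG with its partner Max, stood at 79.45 CPM in stem and multipotent progenitor-like cells and at 28.17, 9.436, 4.612, 1.859 and 3.228 CPM along the erythroid ranges. It did not pass the rule at the first step (log2 difference -0.87, run range -1.98 to -0.05). Max stood at 49.97 and 48.74 CPM at that step, and Mycn at 0.4173 and 0.1506 CPM. Mxd1, which pairs with Max and represses, rose from 29.21 to 93.21 CPM at that step, and from 93.21 to 871.7 CPM between 2 to 20% and 60 to 80% globin. Mxi1, a relative of Mxd1, rose from 74.94 to 281.6 CPM over the same span. In the neutrophil line Mxd1 stood at 44.51, 83.19, 286.8 and 1079 CPM and Myc at 18.34, 7.758, 1.792 and 1.299 CPM.

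Promoter sequences of RefSeq (mouse build GRCm38.p6, 250 bases before to 50 after the start) covered 32 of the 38 genes. The letters CACGTG, which read the same on both strands, occurred in 7 of these 32 (21.9%), in 15 of 86 other ribosome assembly genes (17.4%), in 6 of 64 ribosomal protein genes (9.38%) and in 1435 of 13686 promoters of all genes in the table (10.5%). These 7 genes all fell at the first erythroid step. The stretches that hold the letters are given for all 7. Each is written 5′ to 3′ along the gene, with CACGTG in capitals.
Mybbp1a (chr11:72441355-72441376, + strand): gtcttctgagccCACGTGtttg
Nop2 (chr6:125131811-125131840, + strand): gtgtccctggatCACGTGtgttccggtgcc
Pes1 (chr11:3963965-3963994, + strand): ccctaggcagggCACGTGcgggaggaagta
Pno1 (chr11:17211540-17211564, - strand): tgtacaaccacgCACGTGttcctct
Tsr1 (chr11:74898092-74898121, + strand): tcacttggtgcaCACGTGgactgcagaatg
Utp20 (chr10:88826765-88826789, - strand): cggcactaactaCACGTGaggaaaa
Wdr43 (chr17:71616220-71616249, + strand): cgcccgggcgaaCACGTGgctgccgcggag
In Nop2 the letters lie 60 bases before the annotated start, and in the other genes 2 to 40 bases after it. A match of letters describes the sequence and does not show that a factor binds there. The other 25 genes hold no such letters in this window, and 19 of them fell at the same step. A link between the letters and the fall was not tested.

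The 38 genes lie on 17 chromosomes, and 8 of the 38 (21.05%) enclose at least 1 annotated small nucleolar RNA on their own strand. They are Ncl, Nop56, Nop58, Dkc1, Wdr43, Ppan, Gnl3 and Tsr1. The share was 1.418% among 16152 protein-coding genes of the table, 2 of 105 (1.905%) among other ribosome assembly genes and 30 of 85 (35.29%) among ribosomal protein genes. In the GENCODE M21 annotation of the same build, Ncl lies at chr1:86344719-86359400 and encloses 3, and Nop56 at chr2:130274430-130279313 encloses 5. Of the 8, all but Dkc1 and Nop56 fell at the first erythroid step. The counts come from polyadenylated RNA and do not measure the small nucleolar RNAs themselves.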

How the data were processed

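Counts are UMIs of each gene in each cell, deposited by the authors as 1 raw table. Its making used mm10, Cell Ranger 5.0.0 and Seurat 3.1.5, per the submitters' processing notes. A filter on genes (200 or more) and mitochondrial UMIs (20% or less) removed 0 cells. Scrublet called 17 doublets (0.068%), too few to show that it worked, and doublets may remain. The 24925 other cells were clustered in scanpy 1.11.5 under Python 3.11.15 (2000 variable genes, 30 components, 15 neighbours, Leiden resolution 1, leidenalg 0.10.2, seed 0) and named from markers. The planned neutrophil precursor class did not arise, and a cluster led by Fcnb took its place, and a shallow cluster led by Prg2 and Epx (697 cells) was kept out of the stem class, both decided after its leading genes were seen.

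UMIs were summed per class and divided by non-globin UMIs (numpy 2.4.6, pandas 2.3.3). Differences are log2 ratios after adding 10 CPM, centred on the median gene; the code was checked on simulated data. No sample was assigned to a column, so the comparisons of transgenic with control mice and of spleen with marrow were not made. The runs hold cells of 1 table each with an unknown library, and their spread may be technical. Depth per class ran from 1858948 non-globin UMIs (80% or more globin) to 31248667 (immature neutrophil-like), which limits genes of low level: exact 95% Poisson intervals (counting error only) were 3385 to 3459 CPM for Npm1 under 2% globin and 0.1842 to 1.731 CPM for Polr1a at 60 to 80%. All 38 genes were named, with up to 4 of each other list that had the largest called difference from 2 to 20% to 60 to 80% globin. The 38 genes and the lists were chosen with earlier results of these data known. Alternatives were other totals, no centring, other added CPM, minimum levels, globin bounds, cell filters, cluster resolution and leaving out each run.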

Additional observations from a re-analysis of the deposited data

How the results depend on the processing

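Values are for the 38 genes, medians as log2 differences. Leaving out each barcode run in turn, the number lower at the first erythroid step was 31 to 34 (median -1.76 to -1.43), at the second 15 to 17 (-1.35 to -1.29), at the third 0 to 0 (-0.105 to 0.017, which crosses 0) and from 2 to 20% to 60 to 80% globin 12 to 13 (-1.32 to -1.10). The number higher was 5 to 9 in the last erythroid range (1.24 to 1.51) and 3 to 6 in the first against stem cells (0.54 to 0.62). In the neutrophil line the ranges were 1 to 1 lower in progenitors against stem cells (-0.29 to -0.23), 16 to 19 lower in the Fcnb-high cluster (-1.24 to -1.11), 4 to 5 lower in immature cells (-0.78 to -0.65), 1 to 1 higher in mature against immature cells (-0.77 to -0.70) and 25 to 26 lower in mature cells against progenitors (-1.81 to -1.67).

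With 1 CPM added, medians were -1.78 and -1.79 at the first 2 erythroid steps, 1.82 at the last, -1.76 from 2 to 20% to 60 to 80% globin, -1.36, -1.001 (7 lower) and -3.00 for the Fcnb-high cluster, immature cells and mature cells against progenitors, and 1 gene was lower at the third erythroid step. Without the minimum level they were -0.98 at the second step, 0.40 (2 higher) at the last, -0.48 (3 lower) for progenitors against stem cells, -0.25 for mature against immature cells and -2.13 for mature cells against progenitors. There were 3 lower at the third step and 21 from 2 to 20% to 60 to 80% globin. With a minimum of 50 CPM they were -1.52 (10 lower) at the second step, -0.77 at the third, 1.89 at the last, -1.82 from 2 to 20% to 60 to 80%, -0.46 (2 lower) for progenitors, -1.26 for the Fcnb-high cluster, -1.25 for immature cells and -1.92 for mature cells against progenitors, with 0 higher in mature against immature cells.

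Without centring they were -0.44 (3 lower) at the third step, 0.57 (2 higher) at the last, -1.78 from 2 to 20% to 60 to 80%, -0.60 (6 lower) for progenitors, -1.40, -0.90 and -2.49 for the Fcnb-high cluster, immature cells and mature cells against progenitors. With all UMIs as the total the last erythroid step had 0.95 and 1 higher, and with 500 genes and 10% mitochondrial UMIs required 1 higher. With globin bounds of 5, 25, 55 and 75% the second step was -1.16, and 1 gene was higher in the first range against stem cells. At cluster resolution 0.5 mature against immature cells gave -0.057 and 0 higher, and the stem class and Fcnb-high cluster did not arise, so their comparisons have no value there. The other 115 counts and 101 medians outside the left-out runs stayed within 1.5 times the count or within the run spread, including those without repeated barcodes, without the shallow erythroid-like cluster and with the Prg2-led cluster in the stem class, all 3 chosen after seeing the data. The causes of these shifts were not tested beyond the change of setting itself. No paired analysis was possible because no column of the table carries a library or replicate number; classes were compared within barcode runs, which are unnamed, for the ranges and the same-sign rule. With 1 pooled table there is no replicate error, genes of few UMIs are uncertain, and a fold after adding 10 CPM understates the change of low genes.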
